A study of Mus musculus with 9 samples.

Results

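The choroid plexus epithelium was followed through 10 of its genes, *Ttr*, *Folr1*, *Clic6*, *Enpp2*, *Aqp1*, *Kl*, *Otx2*, *Prlr*, *Calml4* and *Sostdc1*, in RNA-seq of embryonic mouse forebrain. The genes were picked by symbol from the 55401 rows of the deposited count table, and each symbol matched 1 row. The samples were bulk forebrain of female embryos taken at E16 to E17, 5 of them *Npas3*+/+ (WT) and 4 *Npas3*+/- (HET), with 1 library per embryo and no treatment. HET embryos carry a constitutive deletion of 1 *Npas3* allele in every cell, on the C57BL/6J background, and the WT embryos were their littermates. The labels name astrocytes as the cell type, but the tissue was not sorted. The telencephalic marker *Neurod6* was at 707 CPM or more in every embryo, and the 5 astrocyte genes ranged widely, with *Slc1a3*, which radial glia also express, at 247 to 319 CPM, *Aldh1l1* at 2.79 to 31.7 CPM, *Gfap* at 4.23 to 12.5 CPM, *Aqp4* at 0.163 to 2.02 CPM and *S100b* at 0.0883 to 0.326 CPM. Levels are given in CPM, the count of a gene relative to the scaled total of its library. A library held 42640218 to 62830060 counts, so that 3 counts, taken as the smallest level that can be shown, were 0.0473 to 0.0722 CPM. The deleted gene, *Npas3*, spanned 29.7 to 40.8 CPM among WT and 27.8 to 34.1 CPM among HET embryos, and the ranges overlapped. The p-values given here measure the spread between embryos of a genotype. The libraries of WT embryos 15, 16 and 41 and HET embryo 24 stood apart from the other 5 in *Ttr* and most of the genes below, and results that rest on them are also given without them.

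The choroid plexus is a sheet of ciliated epithelium that grows into the brain ventricles from the dorsal midline and secretes cerebrospinal fluid. It pumps ions from blood to ventricle, lets water follow through aquaporin channels, seals the gaps between its cells with tight junctions, and releases carrier proteins and growth factors into the fluid. It lies inside the ventricle and is attached to the forebrain wall by a thin stalk. In bulk tissue, fewer epithelial cells and less RNA per cell cannot be told apart.

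The genes lie on 9 chromosomes, given here on GRCm38 from the first to the last annotated base. *Ttr* spans 20665280 to 20674321 of chromosome 18 on the plus strand and *Folr1* spans 101858331 to 101870788 of chromosome 7 on the minus strand. On the plus strand, *Clic6* spans 92485736 to 92541243 of chromosome 16, *Aqp1* spans 55336432 to 55348555 of chromosome 6 and *Kl* spans 150952607 to 150993817 of chromosome 5. Also on the plus strand, *Calml4* spans 62858080 to 62875921 of chromosome 9 and *Sostdc1* spans 36314139 to 36318452 of chromosome 12. *Otx2* spans 48657677 to 48673819 of chromosome 14 on the minus strand. Chromosome 15 holds *Prlr*, from 10177238 to 10349180 on the plus strand, and *Enpp2*, from 54838901 to 54952892 on the minus strand. Exons of other genes cover 1.32% of the exonic bases of *Prlr* and 3.98% of those of *Otx2* on the same strand, and 5.97% of those of *Enpp2* and 3.65% of those of *Otx2* on the opposite strand. How the counting handled strand is not given in the sources used here, so the counts of those stretches are uncertain, and the other 7 genes have no such overlap.

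The embryos split into very unequal levels for most of these genes, with WT and HET embryos on both sides of the split. *Ttr* encodes transthyretin, the carrier of thyroid hormone in cerebrospinal fluid. It had 0.770, 2536, 2127, 2631 and 2.14 CPM in WT embryos 5, 15, 16, 41 and 43. In HET embryos 5, 6, 7 and 24 it had 5.78, 2.47, 11.7 and 467 CPM. The highest and the lowest embryo, both WT, were 3418-fold apart, and HET embryo 24 lay between the 3 high WT embryos and the rest. The level in HET embryo 24 was 39.8-fold above the next lower embryo, and the 3 high WT embryos were 4.56-fold to 5.64-fold above it.

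Genes of transport into the fluid had the same order at the top. *Folr1* encodes the folate receptor that carries folate across the epithelium. Its levels were 0.698, 35.0, 30.7, 35.0 and 0.685 CPM in WT embryos 5, 15, 16, 41 and 43, and 1.21, 1.10, 1.36 and 7.12 CPM in HET embryos 5, 6, 7 and 24. *Aqp1*, the water channel of the surface that faces the ventricle, had 0.866, 48.6, 35.5, 48.1 and 0.773 CPM in the WT embryos and 1.17, 1.16, 1.61 and 6.36 CPM in the HET embryos, in the same order. *Clic6*, of the chloride intracellular channel family, had 3.92, 116.1, 90.1, 102 and 2.67 CPM in WT and 3.79, 3.40, 5.15 and 22 CPM in HET embryos. In each of these genes WT embryos 15, 16 and 41 were highest, HET embryo 24 came next, and the other 5 embryos lay within 1.93-fold to 2.09-fold of each other. The whole range was 51.1-fold for *Folr1*, 62.9-fold for *Aqp1* and 43.5-fold for *Clic6*, far narrower than that of *Ttr*.

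Of the secreted and signalling genes, *Sostdc1*, *Calml4* and *Enpp2* followed with smaller ranges. *Sostdc1*, a secreted antagonist of BMP and Wnt signals, spanned 1.06 to 25.3 CPM, and *Calml4*, which encodes a calmodulin-like protein, 0.770 to 20.8 CPM. *Enpp2* encodes autotaxin, the secreted enzyme that makes lysophosphatidic acid. It had 8.32, 50.1, 41.8, 50.2 and 8.48 CPM in the WT embryos and 8.73, 9.04, 8.89 and 14.4 CPM in the HET embryos, in the order given above. Its 5 low embryos differed by only 1.09-fold, all of them between 8.32 and 9.04 CPM. *Kl*, whose protein klotho is a co-receptor for FGF23, was scarce, with 49 to 121 counts in WT embryos 15, 16 and 41 and 24 counts in HET embryo 24. The other 5 embryos had 0 to 15 counts of *Kl*, and the 0 of WT embryo 5 allows a level of up to 0.0722 CPM.

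*Otx2* and *Prlr* did not share the split. *Otx2* encodes a homeodomain transcription factor required for choroid plexus development and also active in the diencephalon and midbrain. Its levels in WT embryos 5, 15, 16, 41 and 43 were 32.8, 39.9, 29.0, 40.8 and 11.2 CPM, and in HET embryos 5, 6, 7 and 24 they were 15.1, 25, 21.1 and 22.6 CPM. WT embryo 5, lowest of all embryos in *Ttr*, was thus above WT embryo 16 in *Otx2*. That embryo also had the most *Tcf7l2* (17.2 CPM) and *Lhx9* (71.6 CPM) of the 3 diencephalic markers, but not the most *Gbx2* (0.385 CPM), and it was highest as well in the telencephalic genes *Emx1* (89.8 CPM), *Tbr1* (266.8 CPM), *Bcl11b* (364.6 CPM) and *Dlx2* (60.8 CPM). The part of these tissues in the *Otx2* level was not tested. *Prlr*, the prolactin receptor, had only 6 to 55 counts per embryo, with 1.14 CPM in HET embryo 7, 0.709 CPM in WT embryo 41 and 0.131 to 0.443 CPM in the other 7. *Gbx2*, a thalamic marker too low to be tested, was also highest in HET embryo 7 (1.34 CPM) and then in WT embryo 41 (0.630 CPM). The other diencephalic markers did not share this order. *Lhx9* was lowest in the same embryos, at 42.2 and 43.1 CPM, and *Tcf7l2* was at 9.61 and 9.455 CPM, against 17.2 CPM in WT embryo 5. The part of diencephalic tissue in the *Prlr* level was not tested either.

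**Figure D1:**
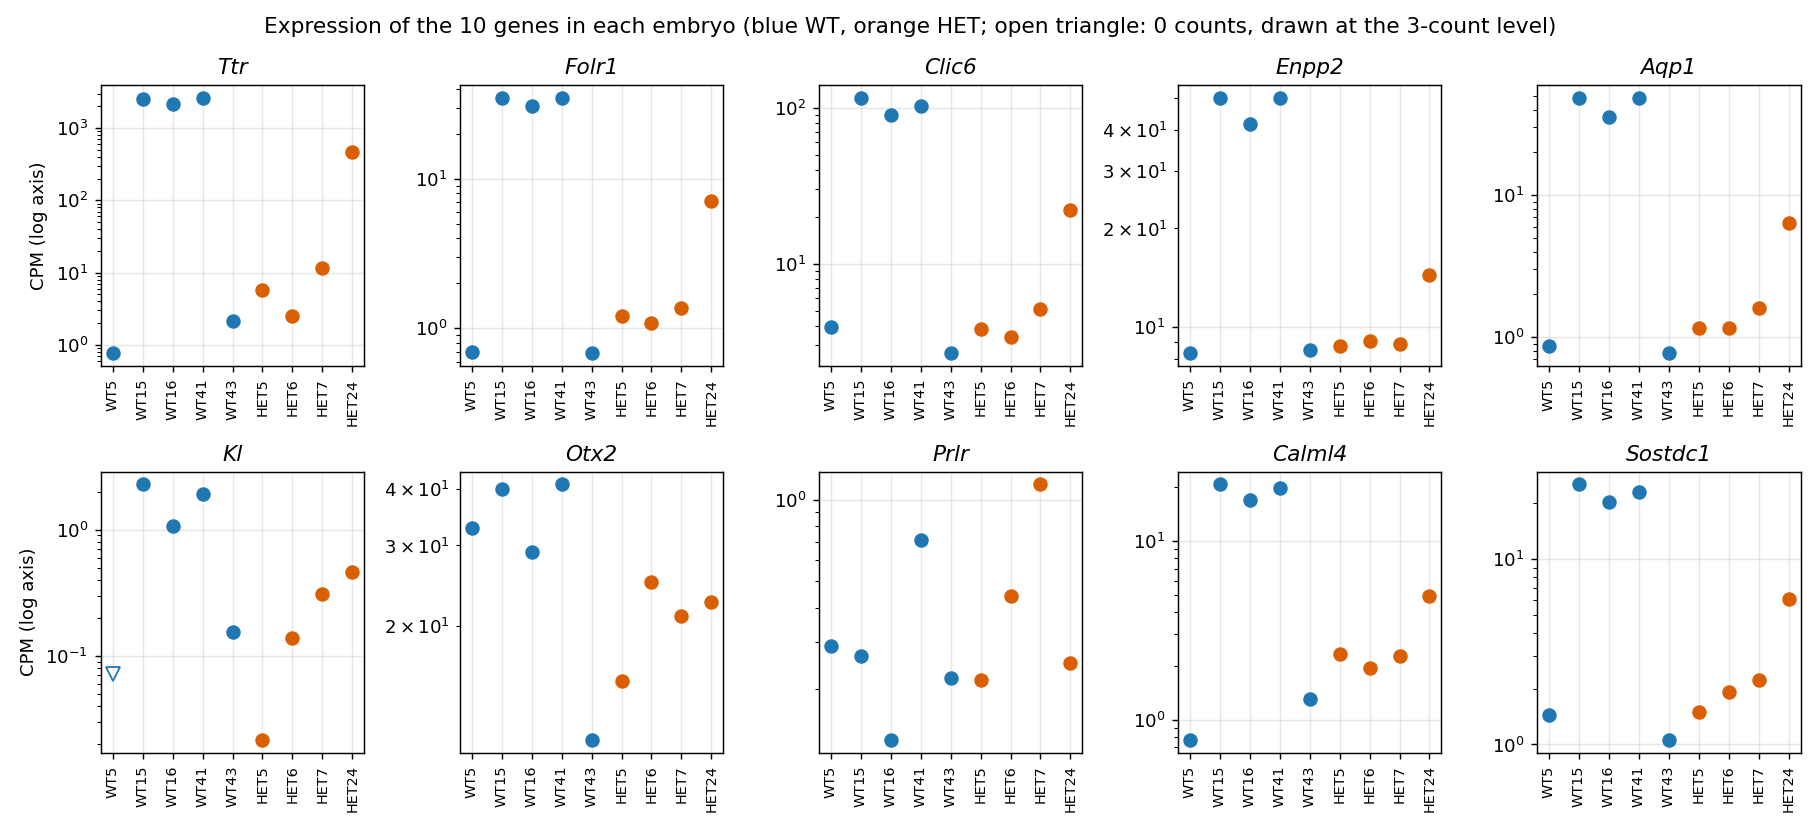
Expression of the 10 genes in CPM (y axes, logarithmic, each with its own range) in each of the 5 WT (blue) and 4 HET (orange) embryos (x axes), 1 point per embryo. WT embryos 15, 16 and 41 stand above HET embryo 24, and HET embryo 24 above the other 5, in every gene except *Otx2* and *Prlr*, and the open triangle marks the 0 counts of *Kl* in WT embryo 5.

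In all, 8 of the 10 genes had WT embryos 15, 16 and 41 and HET embryo 24 above each of the other 5 embryos, an arrangement that 3.11% of the 17818 tested genes shared. This is a description, since *Ttr* had set those 4 embryos apart before. Per kilobase of exon, which allows genes to be compared, *Ttr* led in 6 embryos and *Otx2* in WT embryos 5 and 43 and HET embryo 6. In WT embryo 15 the level of *Ttr* was 2138 CPM per kilobase, followed by *Clic6* at 29.7, *Aqp1* at 18.5, *Folr1* at 15.2 and *Sostdc1* at 14.2 CPM per kilobase. In WT embryo 5 the order was *Otx2* at 7.77, *Enpp2* at 1.44, *Clic6* at 1.002, *Sostdc1* at 0.810 and *Ttr* at 0.649 CPM per kilobase. *Ttr* held 84.7% to 89.1% of all counts of the 10 genes in the 4 embryos with the most, and 1.54% to 21.02% in the other 5. The 10 genes together took 0.244% to 0.298% of all counts in WT embryos 15, 16 and 41, 0.0556% in HET embryo 24 and 0.00284% to 0.00558% in the others.

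Promoter sequences on GRCm38.p6, from RefSeq, were read for the 5 genes with an entry in the table used here, *Aqp1*, *Kl*, *Otx2*, *Prlr* and *Calml4*, with 10 start sites in all. The E-box CANNTG is named by the study as the site of NPAS3, and TAATCC is the core site of OTX2. Both were searched on both strands of the 250 bases before each start, and the letters of the motifs do not overlap in any window shown. The 10 starts are not separate genes, since 4 are of *Otx2*, with windows that overlap in part, and 3 are of *Prlr*. An E-box was present before 8 of the 10 starts, against 66.2% of the 32851 windows of all genes. TAATCC was present before 1 of the 10, a start of *Otx2*, against 6.25% of all windows. *Aqp1*, *Calml4* and *Kl* are shown because they followed *Ttr* across the embryos, and the *Otx2* window because it holds both motifs. All are written from the base 250 before the start to the base before it, with the E-box in capitals. In the *Otx2* window TAATCC lies on the other strand, as ggatta.
*Aqp1*, chr6:55336049-55336298, plus strand: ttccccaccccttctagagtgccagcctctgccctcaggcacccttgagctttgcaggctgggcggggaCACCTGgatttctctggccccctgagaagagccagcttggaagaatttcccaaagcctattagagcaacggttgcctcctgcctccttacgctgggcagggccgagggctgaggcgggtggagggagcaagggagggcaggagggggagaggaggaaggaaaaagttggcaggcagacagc
*Calml4*, chr9:62857854-62858103, plus strand: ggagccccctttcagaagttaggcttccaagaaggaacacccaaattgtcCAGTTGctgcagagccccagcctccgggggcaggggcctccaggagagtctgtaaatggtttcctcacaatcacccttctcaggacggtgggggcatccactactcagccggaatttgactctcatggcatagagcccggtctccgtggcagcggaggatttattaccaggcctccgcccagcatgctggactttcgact
*Kl*, chr5:150952357-150952606, plus strand: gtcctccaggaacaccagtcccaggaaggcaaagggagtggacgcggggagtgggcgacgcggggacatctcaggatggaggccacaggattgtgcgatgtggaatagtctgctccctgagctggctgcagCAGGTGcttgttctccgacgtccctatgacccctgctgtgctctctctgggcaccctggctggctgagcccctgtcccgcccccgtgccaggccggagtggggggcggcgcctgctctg
*Otx2*, chr14:48665110-48665359, minus strand: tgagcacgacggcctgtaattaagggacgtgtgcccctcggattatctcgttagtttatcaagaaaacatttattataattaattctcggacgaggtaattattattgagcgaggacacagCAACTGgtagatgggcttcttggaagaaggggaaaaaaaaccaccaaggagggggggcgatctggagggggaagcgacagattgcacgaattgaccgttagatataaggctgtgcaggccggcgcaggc
These matches describe the letters of the windows and say nothing of binding.

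To see whether the genes moved in proportion, the counts of each were divided by those of *Ttr* in the same embryo, a ratio that no scaling between libraries can change. Per 1000 counts of *Ttr*, WT embryos 15, 16 and 41 had 13.3 to 14.5 counts of *Folr1*, 38.8 to 45.8 of *Clic6*, 16.7 to 19.2 of *Aqp1* and 19.1 to 19.7 of *Enpp2*. HET embryo 24 had 15.3 counts of *Folr1* (95% Clopper-Pearson interval 13.7 to 16.9) and 47.2 of *Clic6* (interval 44.4 to 50.04) per 1000 of *Ttr*, close to the 3 WT embryos. Its ratio was lower for *Aqp1*, at 13.6 (interval 12.2 to 15.2), and higher for *Calml4*, at 10.6 against 7.58 to 8.19, and for *Sostdc1*, at 13.1 against 8.77 to 9.97. *Enpp2* was at 30.9 and *Otx2* at 48.4 per 1000 *Ttr* counts in HET embryo 24, the latter against 13.6 to 15.7 in the 3 WT embryos. These intervals cover counting error only, and HET embryo 24 is a single animal, so no test was made.

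In the other 5 embryos no gene except *Kl* could be said to keep its proportion to *Ttr* in any embryo. For *Kl*, 0 counts in WT embryo 5 and 1 in HET embryo 5 were too few to tell. Per 1000 counts of *Ttr* these 5 embryos had 116.4 to 906 counts of *Folr1*, 439 to 5094 of *Clic6* and 138 to 1125 of *Aqp1*. These last 3 genes varied less against each other. This was seen after the ratios to *Ttr* were known, and *Clic6*, with the most counts of the 3, was then taken as the denominator. Per 1000 counts of *Clic6*, *Folr1* had 178 to 343 counts over all 9 embryos, a 1.93-fold range, and *Aqp1* had 221 to 472 counts, a 2.13-fold range. The *Aqp1* ratio followed the split in part, with 394 to 472 in WT embryos 15, 16 and 41 and 221 to 342.5 in the other 6, among them 289 (95% Clopper-Pearson interval 255 to 327) in HET embryo 24. The lowest *Folr1* ratio, 178 in WT embryo 5, rested on 29 counts (95% Clopper-Pearson interval 115.5 to 265), which lay under the interval of 327 to 360.0 for WT embryo 41, where the ratio was highest.

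*Ttr* itself had 21850, 23600 and 25800 counts per 1000 of *Clic6* in WT embryos 15, 16 and 41 and 21210 in HET embryo 24. In HET embryos 7, 5 and 6 the ratio was 2277, 1526 and 726, and in WT embryos 43 and 5 it was 802 and 196. The 5 embryos with little *Ttr* thus held less *Ttr* for their *Clic6* than any of the other 4, and they differed among themselves beyond counting error, from 196 (95% Clopper-Pearson interval 130 to 288) to 2277 (interval 1958 to 2654). *Sostdc1* went the other way, with 218 to 278 counts per 1000 of *Clic6* in the 4 embryos with high *Ttr* and 368 to 562 in the other 5. *Calml4* had 179 to 225 in those 4 embryos, 196 in WT embryo 5 and 442 to 611 in the remaining 4. *Otx2* varied 26-fold, from 322 in WT embryo 16 to 8368 in WT embryo 5.

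**Figure D2:**
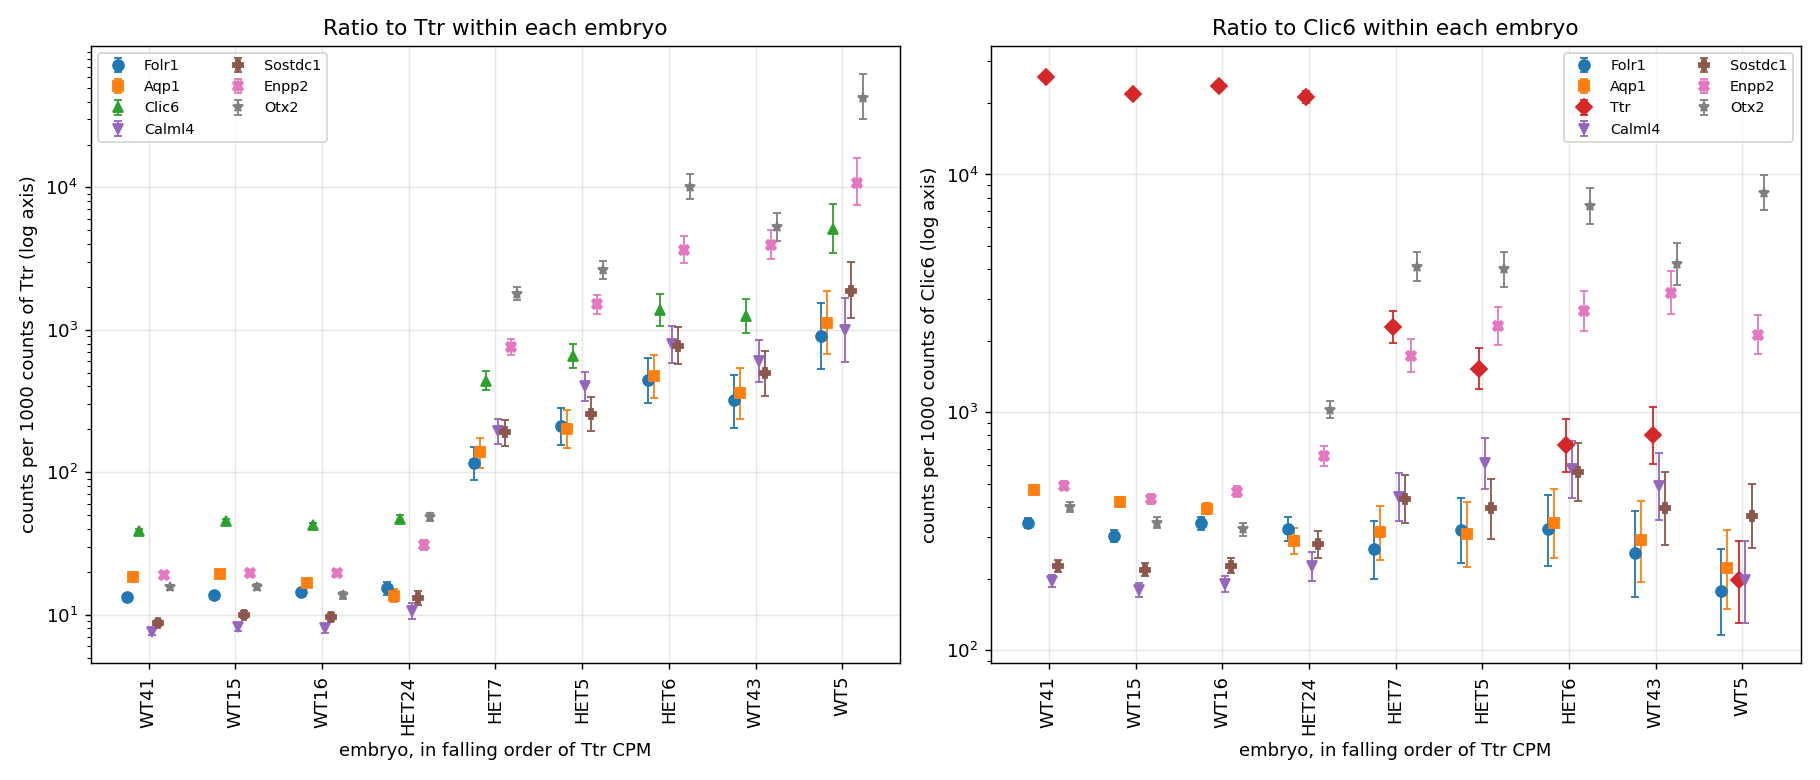
Counts of a gene per 1000 counts of *Ttr* (left) and of *Clic6* (right) in each embryo, on logarithmic y axes, with embryos placed from left to right by falling *Ttr* and bars for the 95% Clopper-Pearson intervals. The 7 genes drawn on the left are higher in the 5 embryos low in *Ttr* than in the other 4, and on the right *Folr1* (178 to 343) and *Aqp1* (221 to 472, highest in WT embryos 15, 16 and 41) vary far less over the 9 embryos than *Ttr*, which drops from 25800 to 196.

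HET was then compared with WT over all 9 embryos by edgeR's quasi-likelihood test, the question of the study. None of the 10 genes differed between genotypes at an adjusted p under 0.05, against 0.14% of all tested genes (25 of 17818). Of those tested genes 0.0281% were called higher in HET and 0.112% lower. The adjusted p in edgeR's test was 0.857 to 0.913 for the 10 genes, and WT and HET embryos overlapped for each of them, where 1.85% of all tested genes did not overlap. Without adjustment, edgeR gave 7 of the 10 a p under 0.05, namely *Folr1*, *Clic6*, *Enpp2*, *Aqp1*, *Kl*, *Calml4* and *Sostdc1*, against 5.42% of all genes. DESeq2 gave 6 such genes and limma-voom 0, and neither called any of the 10 after adjustment. As these genes rise and fall together in the same embryos, they are not separate pieces of evidence.

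The estimated differences were large and poorly determined. *Ttr* averaged 1459 ± 1344 CPM (SD, n = 5) over the WT embryos and 122 ± 230.0 CPM (SD, n = 4) over the HET embryos. On the log2 scale it differed by -3.58, with a 95% confidence interval of -8.16 to 0.99, a standard error of 2.08 and edgeR's adjusted p at 0.911, and the SD was about as large as the mean in WT and larger than it in HET. *Aqp1* averaged 26.8 ± 24.3 CPM (SD, n = 5) over the WT and 2.58 ± 2.53 CPM (SD, n = 4) over the HET embryos, a log2 difference of -3.36 with a standard error of 1.17 and edgeR's adjusted p at 0.896. The log2 difference of *Folr1* was -2.91, of *Clic6* -2.87, of *Sostdc1* -2.27, of *Kl* -2.19, of *Calml4* -2.06 and of *Enpp2* -1.63, with standard errors of 0.55 to 1.14. The 2 genes outside the split had smaller values, -0.56 (95% confidence interval -1.23 to 0.12) for *Otx2* and 0.61 (interval -0.63 to 1.85) for *Prlr*. The median over the 10 genes was -2.23, against -0.005 over all tested genes, and 51.5% of all tested genes were below 0.

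The direction rested on 3 libraries. Without WT embryos 15, 16 and 41 the log2 fold change became 6.37 for *Ttr*, 1.97 for *Folr1*, 1.66 for *Aqp1*, 1.39 for *Clic6* and 1.24 for *Sostdc1*, with adjusted p of 0.887 or more for all 10 genes in edgeR's test. Without these and HET embryo 24, among 2 WT and 3 HET embryos, it was 2.19 for *Ttr*, 0.82 for *Folr1*, 1.07 for *Calml4* and 0.081 for *Enpp2*, with edgeR's adjusted p at 0.999 for each of the 9 genes still tested. Every HET embryo was above every WT embryo for 6 of the 10 genes in these 5 embryos, *Ttr*, *Folr1*, *Enpp2*, *Aqp1*, *Calml4* and *Sostdc1*, against 8.44% of all tested genes, and the reverse held for 0 of the 10, against 8.95%. The embryos left out were picked by *Ttr* itself, so these values are descriptive. Of the single embryos, HET embryo 24 moved *Ttr* most, to -7.77 when it was left out.

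**Figure D3:**
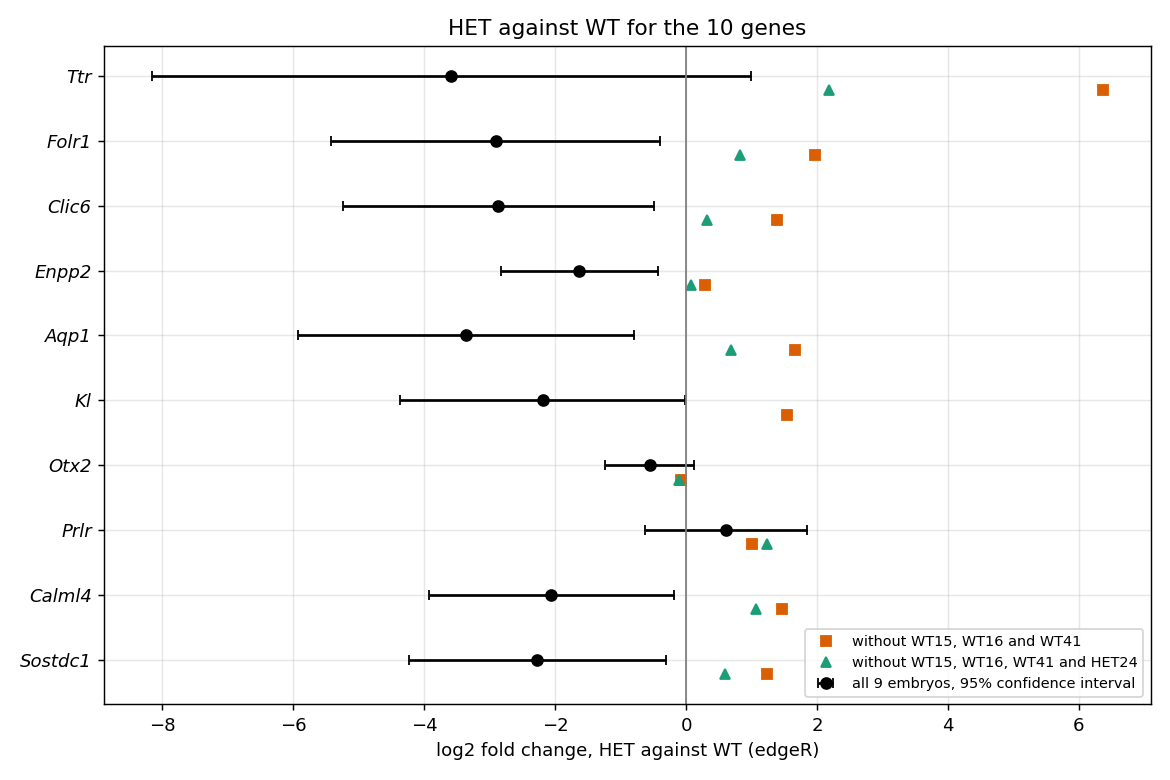
Log2 fold change of HET against WT (x axis) for the 10 genes (y axis) from edgeR. Black points with 95% confidence intervals are the fit to all 9 embryos, squares the fit without WT embryos 15, 16 and 41, and triangles the fit that also leaves out HET embryo 24, in which *Kl* was not tested. The black points of all genes except *Prlr* are below 0, and the squares and triangles of all except *Otx2* are above it.

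Other genes of the same epithelium were taken from lists of 11 ion and water transport genes and 17 further epithelial genes. In edgeR's test 0 of the 11 and 0 of the 17 were called in either direction after adjustment, against 0.14% of all tested genes, and 6 and 11 of them had an unadjusted p under 0.05, against 5.42%. The 4 embryos with high *Ttr* were above the other 5 for 7 of the 11 transport genes and 13 of the 17 others, again against 3.11% of all tested genes. *Kcne2*, a potassium channel subunit of the ventricular surface, spanned 43.1 to 56.6 CPM in WT embryos 15, 16 and 41, with 9.16 CPM in HET embryo 24 and 0.163 to 0.413 CPM elsewhere. *Slc4a5*, a sodium bicarbonate cotransporter, was at 14.7 to 21.2, 3.28 and 0.144 to 0.238 CPM in the same order, and *Car12*, a carbonic anhydrase, at 47.7 to 66.2, 15.2 and 5.44 to 8.52 CPM. The tight junction genes differed, since *Cldn1* (18.7 to 24.1, 4.05 and 0.192 to 0.393 CPM) and *Cldn2* (8.55 to 11.5, 2.09 and 0.155 to 0.723 CPM) had the split whereas *Cldn3* was at 5.75 to 10.8 CPM in all embryos. *Slc12a2*, the sodium, potassium and chloride cotransporter, which other brain cells also use, had no such split, at 103 to 126 CPM.

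Of the tested genes outside the 10, those most like *Ttr* across the 9 embryos were *Tmem72*, *Kcne2*, *Prr32*, *Slco1a4*, *Slc4a5*, *Cldn1*, *Col8a2*, *Cdh3*, *Slc13a4* and *Krt18*. Likeness was the root mean square difference of the centred log2 CPM profiles, in which 0 is the same profile and a gene of constant level has 4.63. *Tmem72* had 1.33, *Kcne2* 1.37 and *Krt18*, the last of these, 2.26. Among the 9 genes followed here beside *Ttr*, *Aqp1* had 2.33 (rank 11 of 17817), *Folr1* 2.36 (rank 14) and *Clic6* 2.53 (rank 19). *Kl*, *Sostdc1* and *Calml4* had 2.94 to 3.01 and *Enpp2* 3.61, while *Otx2* had 4.31 (rank 672) and *Prlr* 4.77 (rank 16332). In the order of the embryos, *Folr1* ranked 35 of the 36 pairs of embryos as *Ttr* did, *Otx2* 27, *Prlr* 19 and the median tested gene 18. Genes such as *Slc13a4* and *Kl* had few counts in the 5 low embryos, where the measure depends on the 2 counts added before taking logs.

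Markers of other cells that the dissection could hold were summed in each embryo. The list of the roof plate, from which the choroid plexus arises, reached 48.0 to 59.6 CPM in WT embryos 15, 16 and 41. HET embryo 24, at 28.2 CPM, was barely above the rest, at 21.99 to 27.9 CPM. WT embryos 15, 16 and 41 were above the other 6 for 5 of the 6 roof plate genes, against 5.64% of all tested genes. These and HET embryo 24 were above the other 5 for 2 of the 6, *Msx1* and *Bmp4*, against 3.11%. In *Msx2*, HET embryo 24 was lowest of all, at 0.173 CPM. The 6 cortical hem genes, of the neighbouring signalling centre, summed to 107 to 127 CPM in WT and 94.97 to 134 CPM in HET embryos. Ependymal and multiciliated markers (15.7 to 40.5 CPM) and meningeal and stromal fibroblast markers (17.0 to 63.5 CPM) were highest in WT embryos 15, 16 and 41, at 36.8 CPM or more and at 47.8 CPM or more, and next in HET embryo 24, at 24.5 and 31.7 CPM, barely above the 23.5 and 31.1 CPM of HET embryo 7. WT embryos 15, 16 and 41 were above the other 6 for 5 of the 7 ependymal genes, against 5.64% of all tested genes, among them *Foxj1*, the regulator of motile cilia, at 28.4 to 31.8 CPM against 13.9 to 20.5 CPM. The other 2, *Ccdc153* and *Tmem212*, were at 0 counts in 8 of the 9 embryos. The part of these cells in the levels of the choroid plexus genes was not tested.

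Endothelial genes summed to 102 to 141 CPM, red cell genes to 207 to 566 CPM and telencephalic genes to 1621 to 2092 CPM, and in none of the 3 lists were the 4 embryos with high *Ttr* together at the top. WT embryos 15, 16 and 41 did have the highest endothelial sums, at 117 CPM or more against 112 CPM or less in the other 6, and the part of these cells was not tested. Of the 6 endothelial genes 1 had the 4 embryos on top, against 3.11% of all tested genes. It was *Plvap*, a gene of fenestrated capillaries such as those of the choroid plexus. Its levels were 3.94 to 5.24 CPM in WT embryos 15, 16 and 41, 2.63 CPM in HET embryo 24 and 1.48 to 2.26 CPM in the rest. The 3 WT embryos were above the other 6 for 2 of the 6 genes, against 5.64% of all tested genes. Beside *Plvap* this was *Pecam1*, an endothelial adhesion gene, at 19.9 to 22.6 CPM against 18.6 CPM or less. *Cldn5*, *Flt1*, *Cdh5* and *Kdr* did not have it, with *Cdh5* at 8.37 CPM in WT embryo 16 and 14.6 CPM in WT embryo 5. The liver is the other main source of *Ttr*, and its defining markers *Alb* and *Afp* were at 0.144 CPM or less in every embryo. Of the same list of liver and yolk sac genes, *Apoa1* was at 0.31 to 0.522 CPM and *Apoa2* at 0.0466 CPM or less. The part of liver in the *Ttr* level was not tested. Over the 13 lists of other genes, 8 of the 88 genes, such as *Gdf7* and *Alb*, were too low to be tested, and 0 of the others were called in edgeR's test after adjustment. Diencephalic genes summed to 53.15 to 89.1 CPM and oligodendrocyte lineage genes to 32.6 to 67.2 CPM.

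**Figure D4:**
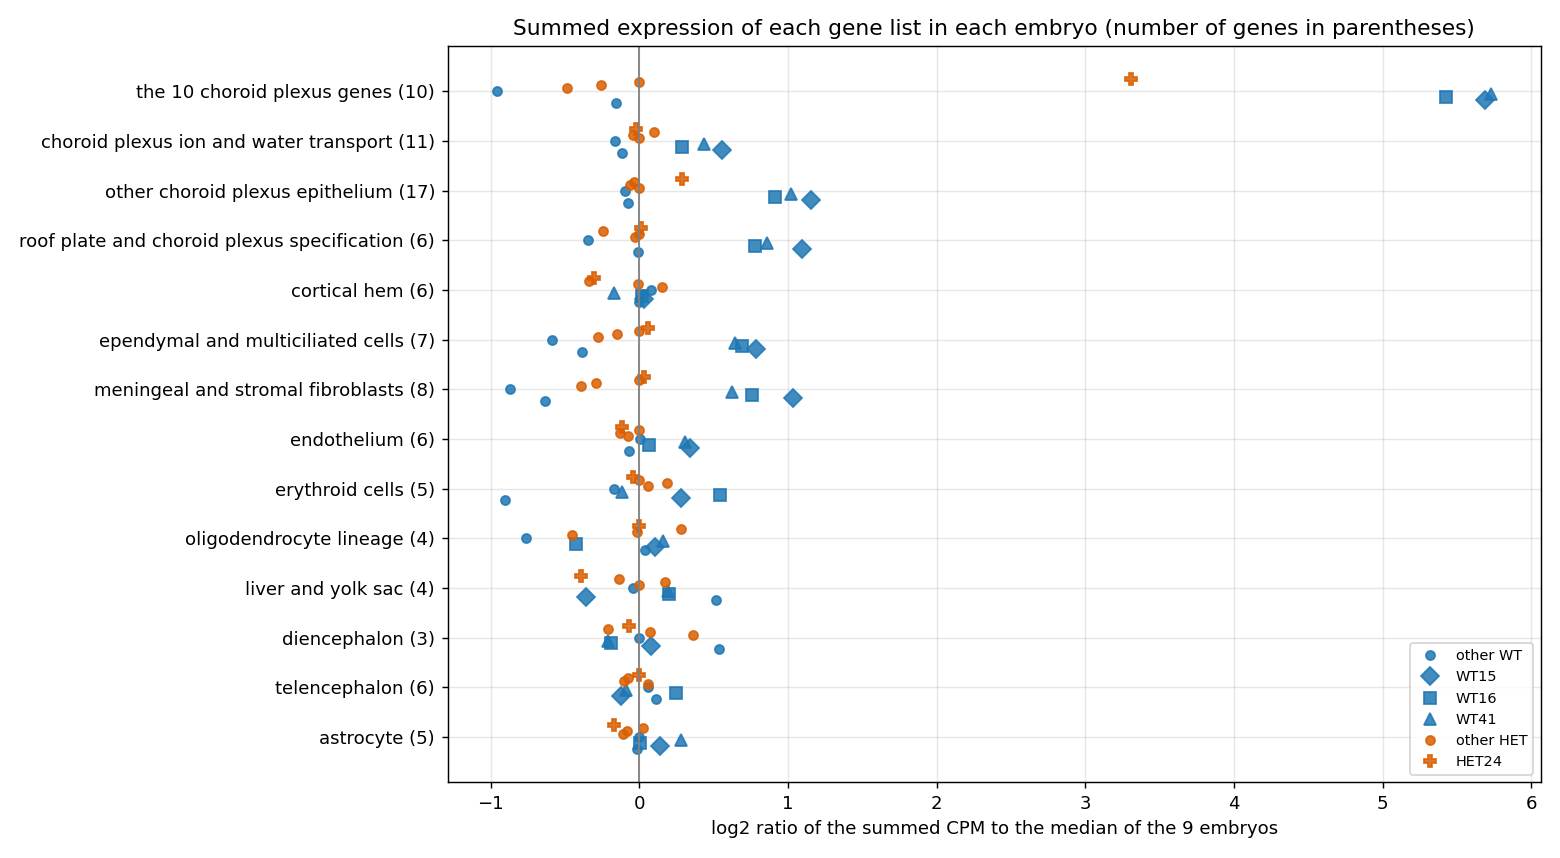
Summed CPM of each gene list in each embryo, as the log2 ratio to the median of the 9 embryos (x axis), for the 10 choroid plexus genes and the other lists (y axis, number of genes in parentheses), with WT in blue and HET in orange and the 4 embryos with high *Ttr* drawn with their own symbols. The 10 genes reach 5.42 to 5.73 in WT embryos 15, 16 and 41 and 3.31 in HET embryo 24, against at most 1.15 in any other list.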

How the data were processed

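Forebrain of 9 embryos was profiled after poly(A) capture and TruSeq library preparation. Per the labels and the study's methods, reads were used single-end, aligned to GRCm38.p6 with STAR 2.7.9a and counted with featureCounts on GENCODE release M25. The authors deposited counts of reads per gene, not normalized, for 55401 genes, with 0 columns left unmapped. Samples were grouped by their titles.

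Counts were analysed in R 4.3.3 with edgeR 4.0.16 (filterByExpr at a minimum count of 10, TMM scaling, quasi-likelihood test, Benjamini-Hochberg adjustment over 17818 genes, threshold 0.05), over all 9 embryos without covariates. DESeq2 1.42.0 and limma 3.58.1 gave alternatives. The tests were checked on simulated counts. Totals of 42640218 to 62830060 counts set the counting precision, and the reads carry no molecular identifiers. The Clopper-Pearson intervals of the ratios cover counting error only. The confidence intervals of edgeR's fold changes rest on the spread between embryos. Coordinates and exon lengths came from GENCODE M21 (GRCm38), promoters from RefSeq. The genes and lists were chosen with earlier results of these data known. Genes named outside the 10 came from these lists or were the 10 most like *Ttr*. Embryos are separate animals, and the labels give no batch.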

Additional observations from a re-analysis of the deposited data

Results flagged for a closer look

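Within each genotype a level was marked where its gap to the nearest other embryo took up more of the group's range than Dixon's 95% criterion allows. This held in 8 of the 20 groups examined, against about 1 that chance gives, and the groups are not independent because the genes move together. HET embryo 24 stood above the other HET embryos for *Ttr* (467 CPM, next 11.7), *Folr1* (7.12 CPM, next 1.36), *Clic6* (22 CPM, next 5.15), *Enpp2* (14.4 CPM, next 9.04), *Aqp1* (6.36 CPM, next 1.61), *Calml4* (4.95 CPM, next 2.32) and *Sostdc1* (6.13 CPM, next 2.23). WT embryo 41 stood above the other WT embryos for *Prlr* (0.709 CPM, next 0.289), on 45 counts.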

How the results depend on the processing

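None of the 10 genes was called under any of the 17 alternatives, with adjusted p from 0.224 upward. Without WT embryos 15, 16 and 41 the log2 fold change turned positive for *Ttr* (6.37), *Folr1* (1.97), *Clic6* (1.39), *Enpp2* (0.29), *Aqp1* (1.66), *Kl* (1.54), *Calml4* (1.47) and *Sostdc1* (1.24). Without HET embryo 24 as well it was 2.19 for *Ttr*, 0.82 for *Folr1*, 0.32 for *Clic6*, 0.081 for *Enpp2*, 0.69 for *Aqp1*, 1.07 for *Calml4* and 0.59 for *Sostdc1*. Leaving out 1 embryo at a time turned only *Prlr*, whose log2 fold change ranged from -0.14 (without HET embryo 7) to 1.17. The cause was not tested. Over all genes 25 were called, 85 with DESeq2, 15 without the 4 embryos high in *Ttr*, and 14 to 23 with 1 embryo left out, the lowest counts being 16, 14 and 16 without HET embryo 5, 6 or 7. Of the 10 genes most like *Ttr*, 8 to 10 stayed among them. Other scalings moved no mean level by more than its SD, a wide margin for genes such as *Ttr* (SD 1344 CPM in WT). The WT mean of *Ttr* was 1459 CPM, 1480 CPM with library size alone and 1453 CPM with DESeq2 size factors. *Prlr* and *Kl* were not tested under a stricter filter of 50 counts. No paired analysis was possible because WT and HET share only 1 number, 5, which marks no pairing.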
